A study of Mus musculus with 10 samples.

Results

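Igkv19-93 is a variable (V) gene segment of the mouse immunoglobulin kappa locus (Igk), and its joined transcripts were followed here through 10 samples of small pre-B cells from bone marrow. Its members were all lines of the deposited Igk repertoire table whose V call, with the allele removed, was Igkv19-93, spelled IGKV19-93 there. The segment was chosen by its share of the counts and by the genotype difference of its pair with J1, so its share and its J use are described here without a test. They held 7530 of the 161780 counts in the table and 861 of its 23998 distinct clonotypes, a clonotype being 1 combination of V segment, J segment and nucleotides of the CDR3. The CDR3 is the loop of the antibody chain in which the V and J segments meet. One group was 5 samples labelled WT, and the other was 5 samples labelled rsCBE, which the design text writes as ΔrsCBE. Both groups came from C57Bl6 mice aged 6 to 12 weeks, and the cells were purified by flow cytometry without a treatment being named. The labels do not spell out the mutant's name, do not describe how the allele was made, and do not say whether each sample came from its own mouse. The reads cover only Igk transcripts, so no marker of the cell type could be checked.

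An Igk light chain gene is assembled in small pre-B cells when the RAG recombinase joins 1 of many V segments to 1 of a few J segments. Nucleases can remove bases from both ends before they are ligated, and opening of the hairpin at each end can leave a few palindromic (P) bases. A joined allele can be rearranged again, with an upstream V segment and a J segment farther downstream replacing the first joint, and this is the route by which receptor editing changes the light chain of a self-reactive cell. J1 is the J segment nearest to the V segments and J5 is the farthest from them. J3 is widely known as a J segment that makes no functional chain in mice. The study's title concerns the part that CTCF-dependent folding of chromatin plays in receptor editing.

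Igkv19-93 lies on chromosome 6 at 68736297 to 68736780 of the mouse build GRCm38, on the reverse strand (Ensembl gene ENSMUSG00000098814.2). Its first exon, which encodes most of the leader peptide, spans 68736716 to 68736764 in the first annotated transcript, and its second exon, which encodes the V domain, spans 68736297 to 68736591. The 3′ end of the segment is 1986 kb from the start of J1 at 70722562. The J segments are on the forward strand, so the segment joins by inversion of the DNA between. The ends that meet in its joints are shown first, because all results on its CDR3 are read against them. They are taken from the GENCODE M21 transcripts, 5′ to 3′, with the bases that belong to the CDR3 in capitals.
Igkv19-93 3′ end: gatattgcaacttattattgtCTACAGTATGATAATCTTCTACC
J1: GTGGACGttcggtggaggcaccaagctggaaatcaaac
J2: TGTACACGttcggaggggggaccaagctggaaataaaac
J4: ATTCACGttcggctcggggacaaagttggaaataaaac
J5: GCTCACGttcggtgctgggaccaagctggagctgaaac
The untrimmed V end gives 23 bases to the CDR3, J2 gives 8, and each of J1, J4 and J5 gives 7.

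The 8 joints with the highest mean share of Igkv19-93 counts over the 10 samples are shown next, because they show where the ends were most often joined. Lower case marks the bases that match the germline V end, and capitals mark the rest of the CDR3, all of which matches the germline J start.
Joint 1, J1: ctacagtatgataatctGTGGACG
Joint 2, J1: ctacagtatgataatcttcGGACG
Joint 3, J5: ctacagtatgataatcttctCACG
Joint 4, J2: ctacagtatgataatctGTACACG
Joint 5, J5: ctacagtatgataatctGCTCACG
Joint 6, J2: ctacagtatgataatcttctGTACACG
Joint 7, J1: ctacagtatgataatcttctGTGGACG
Joint 8, J1: ctacagtatgataatcttctacGGACG
All 8 were in frame. Joints 1 to 5 had a CDR3 of 24 nucleotides and joints 6 to 8 had 27. None of them needed a base from outside the germline ends, although the V and J matches of joints 3, 4 and 6 overlap by 1 or 2 bases, so that those bases could come from either end.

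The depth behind these values was uneven. Total counts per sample ran from 3109 to 24083. The WT samples, replicates 1 to 5, held 1316, 1305, 597, 116 and 338 Igkv19-93 counts in 257, 260, 105, 30 and 79 clonotypes. The rsCBE samples held 1243, 1168, 544, 483 and 420 counts in 248, 242, 91, 104 and 89 clonotypes. WT replicate 4 was thus the shallowest. Replicates 1 and 2 of each genotype were deposited as 1 library each (called batch 1 here), and replicates 3 to 5 as a pair of parts each (batch 2). The labels name no batch, and each batch held both genotypes.

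Igkv19-93 was among the most used V segments in every sample, ranking from 1 to 6 by counts. In WT replicates 1 to 5 it took 5.78, 6.10, 4.32, 3.73 and 3.69% of all counts. In the rsCBE replicates it took 5.16, 5.01, 2.98, 3.39 and 3.60%. The WT mean was 4.72% ± 1.14 and the rsCBE mean 4.03% ± 0.992 (SD, n = 5 each), and the groups overlapped. Between samples with the same replicate number, a pairing that the labels do not state, the rsCBE share was the lower in 5 of 5 pairs. The same was not counted for the other V segments. The 4 samples of batch 1 (5.01 to 6.10%) all lay above the 6 of batch 2 (2.98 to 4.32%). The difference of rsCBE from WT was -0.854 percentage points in batch 1 and -0.589 in batch 2. These shares are given without a test, because Igkv19-93 was picked for study with its share known. Across the whole table, edgeR called 0 of 98 V segments between genotypes (0%), with 7 at an unadjusted p under 0.05 and 0 called by DESeq2. With the batch as a term in the model it called 2 (2.04%), and Igkv19-93 was not one of them. The log2 fold change of Igkv19-93 was -0.23, with a standard error of 0.24 without that term, 0.084 with it and 0.093 under a block by replicate number, and it was called in none of these fits.

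The V segments on either side of it in the annotation were used less. Igkv10-94, at 68704508 to 68704978, held 1.24% ± 0.434 of WT counts and 0.800% ± 0.309 of rsCBE counts (SD, n = 5 each). Igkv4-92, at 68755038 to 68755593, held 1.20% ± 0.370 in WT and 1.35% ± 0.293 in rsCBE. Both are also on the reverse strand.

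J1 was the J segment most often joined to Igkv19-93, and its share was lower in every rsCBE sample than in any WT sample. In WT replicates 1 to 5, J1 took 49.0, 47.7, 49.2, 58.6 and 54.7% of Igkv19-93 counts. In rsCBE replicates 1 to 5 it took 41.1, 40.0, 47.4, 42.7 and 43.8%. The groups did not overlap, but rsCBE replicate 3 lay only just under WT replicate 2. All rsCBE samples lay below all WT samples in the same way for 7 of 66 V segments with at least 10 counts in every sample (10.6%), Igkv19-93 included. The WT mean was 51.9% ± 4.65 and the rsCBE mean 43.0% ± 2.87 (SD, n = 5 each). They differed by -8.86 percentage points, with -7.79 in batch 1 and -9.57 in batch 2. With only part b of the divided samples the difference was -4.20.

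J5 stood the other way round. It took 14.6, 15.7, 14.9, 28.4 and 11.5% of Igkv19-93 counts in WT replicates 1 to 5. In the rsCBE replicates it took 24.7, 27.6, 28.9, 26.9 and 28.8%. WT replicate 4 was the only WT sample inside the rsCBE range, with 33 of 116 counts (Wilson 95% interval 21.0 to 37.2%, counting error only). The other 4 WT samples lay below all rsCBE samples. The WT mean was 17.0% ± 6.57 and the rsCBE mean 27.4% ± 1.71 (SD, n = 5 each). They differed by 10.3 points, with 10.98 in batch 1 and 9.90 in batch 2.

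J2 and J4 overlapped between the groups. J2 took 21.9, 23.3, 26.5, 9.48 and 14.8% in the WT replicates and 20.6, 19.0, 15.1, 17.0 and 16.7% in the rsCBE replicates. J4 took 14.4, 13.3, 9.38, 3.45 and 18.9% in WT and 13.6, 13.4, 8.64, 13.5 and 10.7% in rsCBE. The WT samples were spread more widely than the rsCBE samples for both. J3 was seen once among all 7530 counts, in WT replicate 1. A count of 0 allowed a J3 share of up to 2.59% in WT replicate 4, the shallowest sample. This limit covers counting error only, and the 116 counts lay in 30 clonotypes.

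**Figure D1:**
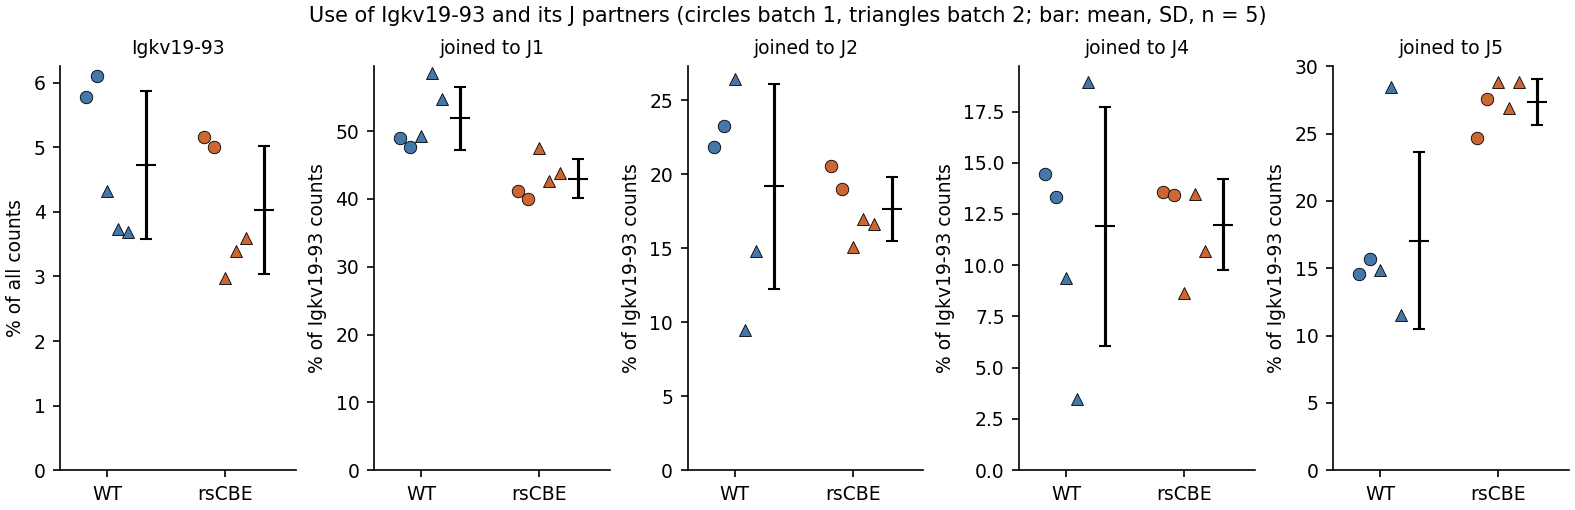
Share of Igkv19-93 among all counts, and of J1, J2, J4 and J5 among Igkv19-93 counts, in percent. Each point is a sample of WT or rsCBE (5 each), marked by batch, and bars give the mean and SD. J1 lies at 47.7% or above in all WT samples and at 47.4% or below in all rsCBE samples, while 1 WT sample lies inside the rsCBE range for J5.

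These J shares by genotype are a description too, since the segment was proposed with the result of its J1 pair known, and J shares sum to the whole. In the fit over all V-J pairs, edgeR called 0 of 270 (0%), with 25 at an unadjusted p under 0.05. DESeq2 called 3 of them (1.11%), none of them with Igkv19-93. When batch was added to the model, edgeR called 7 (2.59%), and the pair with J1 was 1 of them, which is the result it was chosen by and supports nothing further. Under the replicate block 0 of 270 pairs were called, and the pair with J1 had an edgeR adjusted p of 0.051. The log2 fold change of the pair with J1 was -0.50, with a standard error of 0.29 in the model without batch or block, 0.098 with the batch term and 0.116 with the block. The pair with J5 had a log2 fold change of 0.49 ± 0.30 (SE), and those with J2 and J4 had -0.40 ± 0.37 and -0.26 ± 0.40.

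A lower J1 and a higher J5 share in rsCBE was a feature of most V segments. Among 66 V segments with at least 10 counts in every sample, Igkv19-93 included, 58 had a lower mean J1 share in rsCBE than in WT, and the median difference was -4.19 points. That of Igkv19-93 was the 20th most negative. For J5, 62 of the 66 had a higher mean in rsCBE, and the median difference was 9.41 points, close to the 10.3 of Igkv19-93. Its place in both lists was within the run of other segments.

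Igkv19-93 also stood away from the pooled other V segments in the level of its J use, in both genotypes, which is again given without a test. J1 took 47.4% of its counts as a mean over the 10 samples, against 26.9% for all other V segments together in the same samples. The difference within samples was 20.5 points ± 4.43 (SD, n = 10), and it was above 0 in 10 of 10 samples. J5 was correspondingly rarer, at 22.2% against 34.4%, a difference of -12.2 points ± 3.41 that was below 0 in 10 of 10 samples. The differences were 19.2 and 21.3 points for J1 and -12.2 and -12.3 for J5 in batches 1 and 2. Of the 66 V segments, Igkv19-93 had the 8th highest mean J1 share.

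The V segments with the most similar J profile were Igkv1-117, Igkv6-17 and Igkv12-46. Likeness was measured as the sum of the absolute differences of the J1, J2, J4 and J5 shares, halved and averaged over the 10 samples. It was 6.85 percentage points for Igkv1-117, 8.96 for Igkv6-17 and 11.4 for Igkv12-46, against a median of 27.6 over the 66 segments. J1 took 50.3% ± 2.35 of Igkv1-117 counts among WT samples and 43.1% ± 1.28 among rsCBE samples (SD, n = 5 each). The segments whose share of all counts followed that of Igkv19-93 most closely were others: Igkv4-80, Igkv6-15 and Igkv3-2. Their log2 shares, less the mean of each batch, had Pearson correlations of 0.71, 0.70 and 0.70 with it over the 10 samples. Those points share library and depth, the shares sum to the whole, and no p is given.

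The CDR3 of Igkv19-93 joints was shorter than that of the other V segments in every sample. Its mean length, weighted by counts, was 25.2 nucleotides against 26.7, a difference of -1.49 ± 0.119 (SD, n = 10) that was below 0 in 10 of 10 samples (two-sided exact sign-flip permutation test, p = 0.00195, the smallest possible, adjusted p over 4 measures = 0.00260). It was -1.46 in batch 1 and -1.5 in batch 2. Only 4 of the 66 V segments had a shorter mean. The length of 24 nucleotides held 38.0% ± 2.70 of Igkv19-93 counts and 8.42% ± 0.574 of the counts of other segments (SD, n = 10 each). The length of 27 nucleotides held 23.6% ± 4.94 of Igkv19-93 counts and 53.9% ± 5.24 of the others. The main length of Igkv19-93 was thus 1 codon below that of the pooled others. It was not alone in this: Igkv8-27, Igkv8-21 and Igkv4-80, named here after their values were seen, had more of their counts at 24 nucleotides (67.4%, 57.2% and 42.9% as means over the 10 samples).

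**Figure D2:**
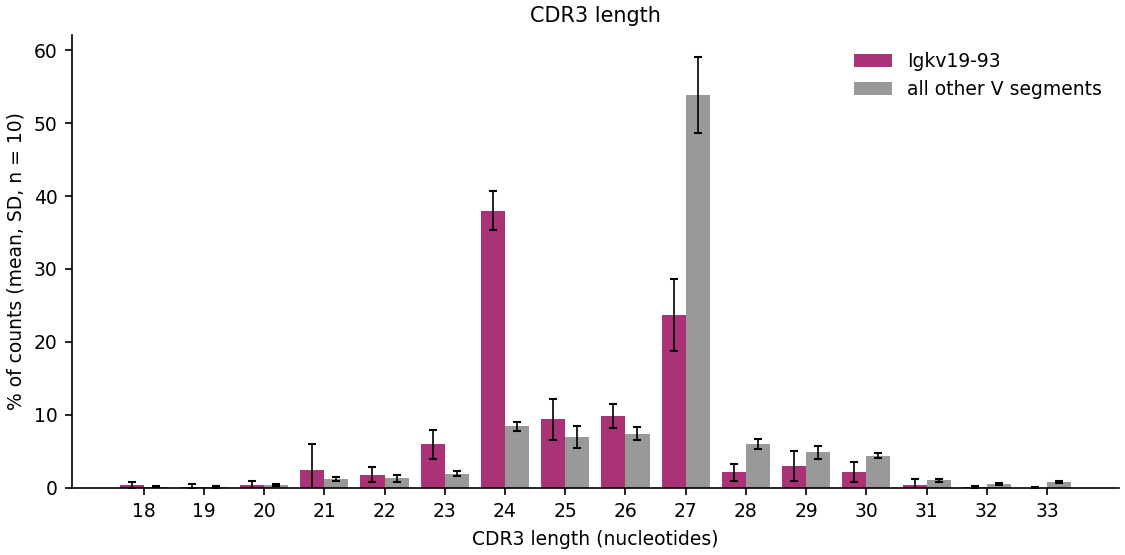
Share of counts (percent, mean and SD over 10 samples) by CDR3 length in nucleotides, for Igkv19-93 and for all other V segments together. Igkv19-93 has its highest bar at 24 nucleotides (38.0%), and the other segments have theirs at 27 (53.9%).

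Mean CDR3 length did not differ between genotypes beyond the spread of the samples. In WT replicates 1 to 5 it was 25.27, 25.26, 25.10, 24.91 and 25.35 nucleotides, and in the rsCBE replicates 25.21, 25.21, 25.40, 25.18 and 25.05. The difference of the means was 0.0324 nucleotides (two-sided exact permutation test, p = 0.746, adjusted p over 6 measures = 0.895). It took either sign, from -0.0357 to 0.0760, when a sample was left out, and was -0.0544 in batch 1 and 0.0903 in batch 2.

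**Figure D3:**
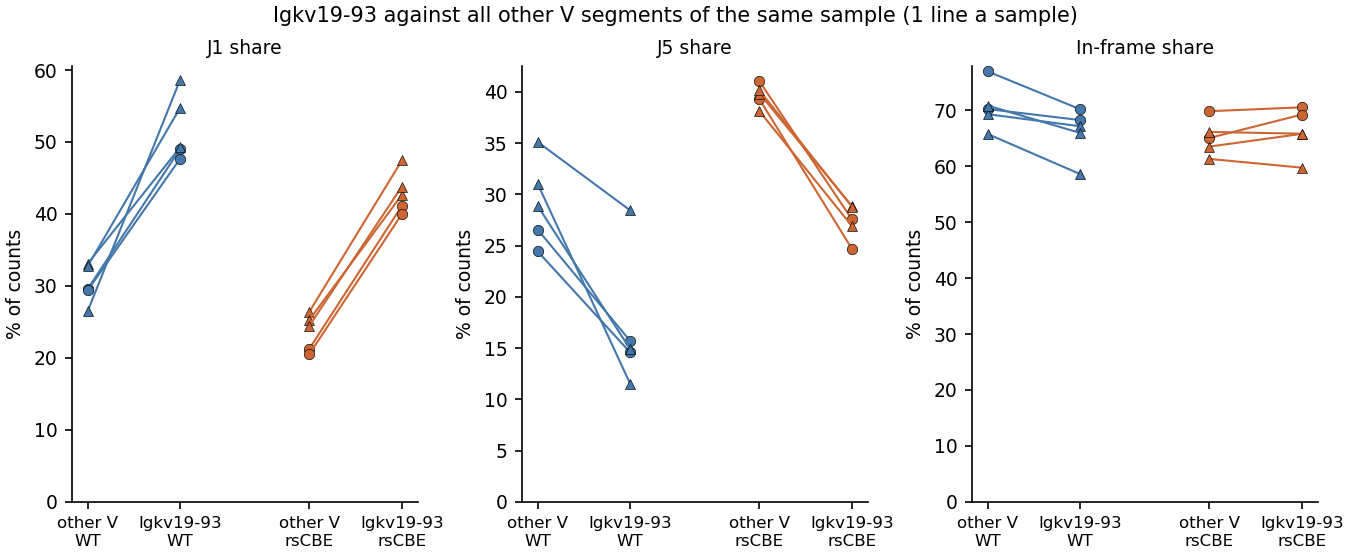
J1 share, J5 share and in-frame share (percent of counts) of Igkv19-93 and of all other V segments pooled, with a line joining the values of each of the 10 samples, marked by batch. All 10 lines rise for J1 (mean 20.5 points) and fall for J5 when read from the other segments to Igkv19-93, while those for the in-frame share run both ways.

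The CDR3 most often matched the germline V end over its first 17 or 20 of 23 bases. The longest match to the germline V end was 17 bases in 24.9% ± 2.96 of Igkv19-93 counts and 20 bases in 23.8% ± 3.49 (SD over 10 samples). Matches of 19 bases held 12.7%, those of 22 bases 10.2%, those of 21 bases 6.93% and those of 18 bases 6.80%. The V end was intact, with all 23 bases, in 6.10% ± 2.62. A match counts a base that is the same in both ends as a V base, which understates trimming, and ends at the first mismatch within the V stretch, which overstates it. The matches of V and J overlapped by at least 1 base in 32.3% ± 1.67 of counts.

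**Figure D4:**
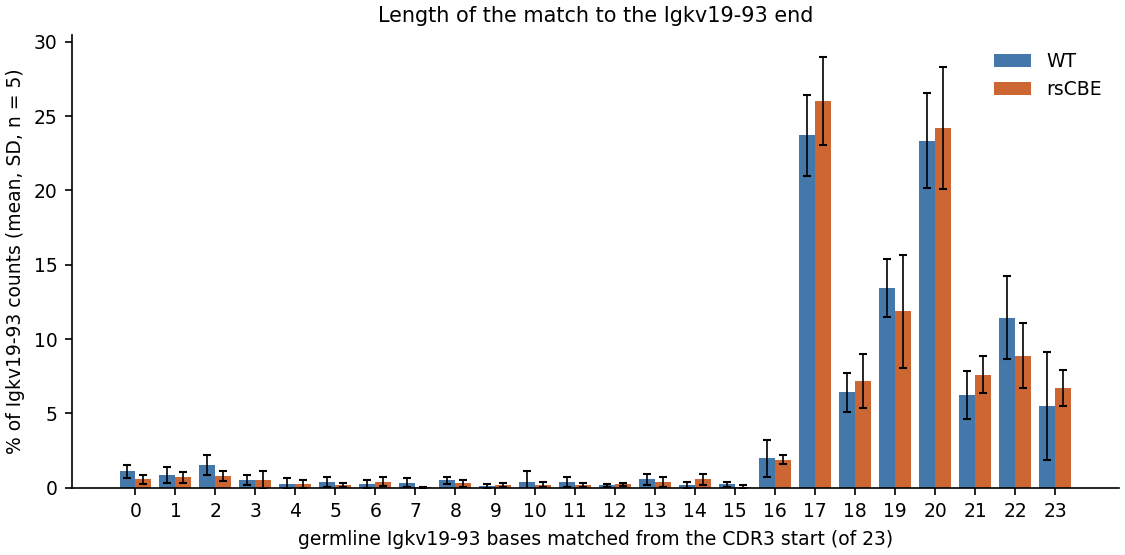
Share of Igkv19-93 counts (percent) by the number of germline V bases matched from the start of the CDR3, out of 23, for WT and rsCBE. Bars give the mean over 5 samples and error bars the SD. The high bars are at 17 and 20 bases in both genotypes.

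The amount of this overlap depended on the J segment. It was present in 11.0% of J1 counts, 33.3% of J5 counts, 53.6% of J4 counts and 72.6% of J2 counts, as means over the 10 samples. J2 begins with a T, and joints cut back to 17 V bases end in a T, so that base is the same from either side. The J start was matched in full in 38.1% ± 5.92 of J1 counts, 46.4% ± 11.6 of J5 counts, 57.5% ± 21.4 of J4 counts and 63.4% ± 11.3 of J2 counts (SD, n = 10). A base that is the same in both ends counts as a J base here, so these shares can overstate how often J was untrimmed. The J segments stand in the same order as for the overlap. The J4 values rest on as few as 4 counts in a sample and the J2 values on as few as 11.

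The mean length of the V match, in bases, was 17.98, 18.29, 18.25, 18.21 and 18.46 in WT replicates 1 to 5. It was 18.38, 18.25, 18.81, 18.53 and 18.78 in the rsCBE replicates. The ranges overlapped, and the difference of 0.313 bases did not pass the test (two-sided exact permutation test, p = 0.0556, adjusted p = 0.111). It was 1.42 with each clonotype counted once, -0.00411 without clonotypes of 1 count and -0.0608 among joints that match the first 12 V bases. A match of fewer than 12 bases was rare and was mostly a mismatch inside a V stretch of normal length, not a deep cut. Such CDR3s held 439 counts in 400 clonotypes. Of these counts, 428 had a CDR3 of at least 20 nucleotides, and 374 differed from the germline at no more than 3 of the first 16 V bases. They made up 6.74% ± 0.561 of the Igkv19-93 counts of WT samples and 4.35% ± 1.57 of those of rsCBE samples (SD, n = 5 each).

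Most Igkv19-93 transcripts carried joints that could be written from the germline ends alone. In such a fully templated joint a stretch of the V end is followed directly by a stretch of the J start, so that a mismatch within either stretch also makes a joint count as not templated. Fully templated joints held 81.7, 83.5, 80.6, 81.0 and 81.7% of counts in WT replicates 1 to 5. They held 84.3, 82.9, 83.8, 84.7 and 85.5% in the rsCBE replicates. WT replicate 2 was the only WT sample above the lowest rsCBE sample. The means were 81.7% ± 1.12 and 84.2% ± 0.969 (SD, n = 5 each), a difference of 2.54 points (two-sided exact permutation test, p = 0.0159, adjusted p over 6 measures = 0.0476). The difference was 0.989 points in batch 1 and 3.57 in batch 2. The call was lost in 8 of the 10 fits that left out a sample, and held without WT replicate 2 and without rsCBE replicate 2. It was also lost with the replicate number as a block (exact permutation adjusted p = 0.25, where the smallest unadjusted p is 0.0625). Among joints that matched the first 12 V bases, a restriction chosen after the values were seen, the difference was 0.440 points (exact permutation adjusted p = 0.738).

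A small set of joints recurred from sample to sample and held most of the counts. Of the 861 clonotypes, 71 were found in at least 5 of the 10 samples, and these recurrent clonotypes held 6150 counts, or 81.7% of the total. Of the 71, 32 used J1, 12 J2, 10 J4 and 17 J5. Among them 29 were in frame and 58 were fully templated, and 70 were templated once palindromic bases are allowed. At the other end, 667 clonotypes were seen in 1 sample only and together held 10.2% of the counts, and 9 clonotypes were seen in all 10 samples.

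Recurrent clonotypes held 79.3, 82.5, 77.2, 75.0 and 78.1% of Igkv19-93 counts in WT replicates 1 to 5. They held 82.9, 81.4, 87.5, 84.7 and 83.6% in the rsCBE replicates. The groups overlapped through WT replicate 2 and rsCBE replicate 2. The means were 78.4% ± 2.78 and 84.0% ± 2.28 (SD, n = 5 each), a difference of 5.57 points (two-sided exact permutation test, p = 0.0159, adjusted p over 6 measures = 0.0476). It was 1.21 points in batch 1 and 8.47 in batch 2. The call was lost with the replicate block (exact permutation adjusted p = 0.25) and in 8 of the 10 fits that left out a sample, all but those without replicate 2 of either genotype. The list of recurrent clonotypes was drawn from these same 10 samples, and the 5 samples of 1 genotype alone can meet it. WT replicate 4, with 116 counts in 30 clonotypes, could bring fewer clonotypes into it than any other sample. The test is therefore no support for a difference between genotypes. For clonotypes found in at least 8 samples, which needs both genotypes, the difference was 0.823 points (exact permutation adjusted p = 0.914).

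The 8 joints printed above held 38.7% ± 3.51 of the Igkv19-93 counts of WT samples and 41.3% ± 2.35 of those of rsCBE samples (SD, n = 5 each). Joint 1, an intact J1 end behind 17 V bases, took 6.53, 7.51, 3.69, 11.2 and 6.21% in WT replicates 1 to 5 and 7.32, 5.82, 9.19, 3.31 and 3.81% in the rsCBE replicates. Joint 2, with J1 cut back by 2 bases, took 6.69, 6.13, 8.71, 4.31 and 8.28% in WT and 4.59, 5.82, 2.21, 11.4 and 5.48% in rsCBE. The order of samples was not the same for both, and the groups overlapped for each.

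Joint 5, an intact J5 end behind 17 V bases, was the only one of the 8 whose groups did not overlap with all samples included. Of the 263 clonotypes tested in the whole table, 6 (2.28%), as a share of their V segment, lay above all WT samples in all rsCBE samples, joint 5 being 1 of them. In the other direction, 3 of the 263 lay below all WT samples in all rsCBE samples, and 1 of these was an Igkv19-93 clonotype outside the 8 joints. It took 3.42, 3.60, 4.02, 2.59 and 2.07% of Igkv19-93 counts in WT replicates 1 to 5 and 5.31, 6.85, 5.88, 6.42 and 6.43% in the rsCBE replicates. Its means were 3.14% ± 0.793 and 6.18% ± 0.594 (SD, n = 5 each). In the fit over all clonotypes its log2 fold change was 0.65 ± 0.41 (SE), which did not pass the test (edgeR, adjusted p = 0.840). That fit called 0 of 263 clonotypes (0%), with 14 at an unadjusted p under 0.05 and 2 called by DESeq2 (0.76%). With a batch term the count was also 0. Igkv19-93 gave 17 of the 263, of which 0 were called. Joint 3, in which J5 has lost its first base, lay between 2.51 and 12.9% among WT samples and between 4.14 and 8.82% among rsCBE samples. Its highest value was that of WT replicate 4, where it made up 15 of the 33 J5 counts. With that sample left out, a choice made after its value was seen, the highest WT value (4.138%) and the lowest rsCBE value (4.141%) were nearly equal. How many of the 263 clonotypes separate under that omission was not counted, so it says nothing particular about joint 3.

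The remaining joints of the 8 overlapped between genotypes. Joint 4 had a mean of 5.15% ± 3.0 in WT and 5.75% ± 1.17 in rsCBE, and joint 6 of 3.88% ± 0.717 and 4.32% ± 0.747. Joint 7 had 3.74% ± 2.44 and 3.76% ± 1.11, and joint 8 had 3.84% ± 2.41 and 3.26% ± 1.07 (SD, n = 5 each). Joints 4, 7 and 8 were at 0 in WT replicate 4 alone, where a count of 0 allows a share of up to 2.59% by counting error alone.

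**Figure D5:**
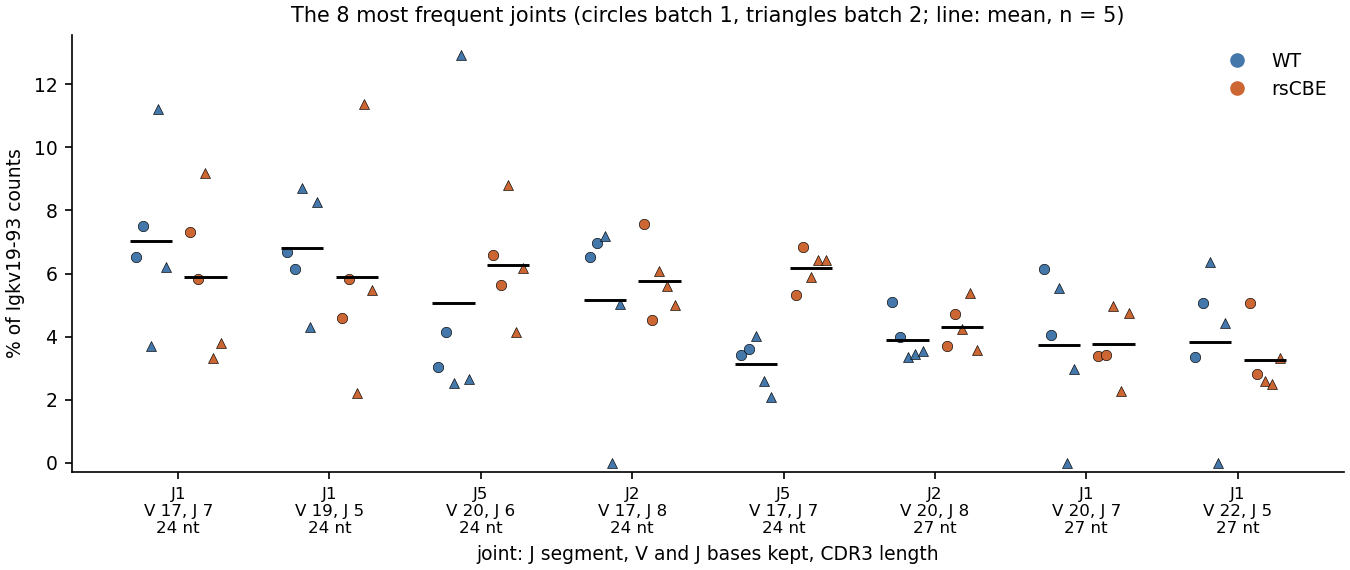
Share of Igkv19-93 counts (percent) held by each of the 8 joints with the highest mean share, by sample, with batch marked and the group mean drawn. Joint 5, with J5, has all rsCBE samples (5.31 to 6.85%) above all WT samples (2.07 to 4.02%), while for joint 3 the groups overlap, with WT replicate 4 the highest (12.9%).

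Different J calls could share a CDR3. The sequence of joint 3, ctacagtatgataatcttctcacg, was listed with J5 on 375 counts, with J4 on 108, with J2 on 51 and with J1 on 5. Every one of the 4 J starts ends in ACG, and J4 and J5 share their last 5 CDR3 bases, so a joint cut deep into J holds little that is specific to a J segment within the CDR3. In all, 37 CDR3 sequences were listed with more than 1 J segment and held 1751 counts. The deposited J call was used throughout, and which bases it was read from is not given in the sources used here.

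Clonotypes with bases between the V and J matches were many but small. There were 706, of which 617 were seen in a single sample, but 395 of the 706 matched fewer than 12 V bases and so include the mismatched V stretches described above. The other 311 held 843 counts, and 233 of them were seen in a single sample. Mismatches closer to the joint cannot be told apart from bases added there. The 4 with the most counts, chosen after their values were seen, are shown with the extra bases in capitals.
J1, 17 V bases: ctacagtatgataatctACgtggacg
J1, 19 V bases: ctacagtatgataatcttcCgtggacg
J1, 18 V bases: ctacagtatgataatcttACgtggacg
J2, 19 V bases: ctacagtatgataatcttcACAtgtacacg
In all 4 the J end is untrimmed and the extra bases are its reverse complement, the pattern of palindromic bases left by an opened hairpin. The first held 57 counts in 9 samples, the second 26 in 6 samples and the third 26 in 8 samples. The fourth held 21 counts in 4 samples, with 14 of them in WT replicate 3. Joints whose extra bases were all palindromic to an untrimmed end held 6.16% ± 1.5 of Igkv19-93 counts (SD, n = 10). Templated and palindromic joints together held 89.1% ± 2.44.

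The in-frame share of Igkv19-93 joints did not differ between genotypes beyond the spread of the samples. A joint was counted as in frame where the CDR3 length was a multiple of 3 and its translation held no stop. In WT replicates 1 to 5, 70.2, 68.3, 67.2, 58.6 and 66.0% of counts were in frame, and in the rsCBE replicates 70.6, 69.3, 65.8, 65.8 and 59.8%. The means were 66.1% ± 4.44 and 66.2% ± 4.19 (SD, n = 5 each), a difference of 0.195 points (two-sided exact permutation test, p = 0.937, adjusted p = 0.937). With each clonotype counted once it was -4.45 points (exact permutation adjusted p = 0.262). By J segment, the in-frame share was 62.8% ± 4.59 with J1, 70.0% ± 8.85 with J2, 62.5% ± 14.1 with J4 and 71.9% ± 7.68 with J5 (SD, n = 10).

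The pooled counts of the other V segments were in frame for 70.6% ± 4.05 of the WT total and 65.2% ± 3.18 of the rsCBE total (SD, n = 5 each). Over the 10 samples Igkv19-93 was 1.77 points below them (-1.77 ± 3.72, SD, above 0 in 3 of 10 samples), which did not pass the test (two-sided exact sign-flip permutation test, p = 0.172). With each clonotype counted once it was -3.42 points and passed (exact permutation adjusted p = 0.0273). By genotype it was -4.59 ± 2.46 points from them in WT, from -7.17 to -1.97, and 1.06 ± 2.25 in rsCBE, from -1.56 to 4.19. The groups did not overlap, as for 3 of the 66 V segments measured in the same way (4.55%). The difference between genotypes was 5.65 points, with 6.81 in batch 1 and 4.87 in batch 2, and 2.95 when each clonotype was counted once. This comparison was added because the values were seen to separate, so it is a description without a test. Among the 66 V segments, 49 had a lower in-frame share in rsCBE than in WT, with a median difference of -5.43 points, and 17 had a higher one, Igkv19-93 being the last of those.

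The number of distinct Igkv19-93 clonotypes was compared at an equal depth of 116 counts, the number in the shallowest sample. It was 54.4, 54.2, 46.1, 30 and 47.2 in WT replicates 1 to 5 and 53.3, 56.8, 44.4, 51.0 and 49.5 in the rsCBE replicates. WT replicate 4 was lowest, and all other samples lay between 44.4 and 56.8. The means were 46.4 ± 9.94 and 51.0 ± 4.60 (SD, n = 5 each), a difference of 4.58 that did not pass the test (two-sided exact permutation test, p = 0.452, adjusted p = 0.679). Without WT replicate 4 the difference was 0.479 at the same depth and -0.757 at a depth of 338 counts. At that depth, the 4 WT samples held 78.5 to 108.2 distinct clonotypes and the 5 rsCBE samples 74.3 to 112.5.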

How the data were processed

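The deposited table gives, per the file headers, the V call of each read, the J call, the CDR3 and a whole-number count for every line of a library, and the authors applied no normalization that the values show. Libraries were read as 151-bp read pairs on a MiSeq, per the labels' protocols, and the build mm10 is named in the submitters' processing notes. The V and J caller, the read filters and whether a count is a read or a molecule are not given in the sources used here. Counts are therefore not taken as independent molecules, and reads from near-identical V segments may be misassigned.

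Parts a and b of a sample were added, 49 duplicate lines were merged and alleles were merged. Germline ends came from GENCODE M21 (GRCm38). Extra bases were called palindromic, up to 4 per end, where they were the reverse complement of an untrimmed end. Single measures were compared with two-sided exact permutation tests over the 10 samples, computed with numpy 2.4.6. The smallest possible p was 0.00794 for 5 against 5 samples and 0.00195 for sign-flips of 10 differences. Benjamini-Hochberg adjustment ran over 6 genotype measures and over 4 measures against other V segments (J1 and J5 use among them, printed without p). V segments, V-J pairs and clonotypes were fitted over the whole table with edgeR 4.0.16 (quasi-likelihood test, total counts as library size, filterByExpr, threshold 0.05), and with DESeq2 1.42.0 as the alternative. The edgeR test gives no standard error, so those printed were derived as the absolute log2 fold change divided by the square root of its F statistic. The scripts were tested on simulated data.

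The labels do not say whether samples are separate mice, so p-values measure only the spread between these samples. Counts of any 2 samples of a genotype differed by more than counting error (lowest chi-square per degree of freedom 2.41). This treats counts as independent and does not show that samples are separate mice. Same-numbered samples of the 2 genotypes deviated together (correlations of 0.453 to 0.877 for the 5 pairs), so the replicate number was tried as a block among the alternatives. The main genotype tests took the samples as unpaired. Only 2 of 5 WT samples correlated best with their own number, and every best match lay in the same batch, so a pairing by number is not established. Genes were named by rule: Igkv19-93 and its V-J pairs, the 3 V segments most alike in J use and the 3 in share, the nearest used V segment on either side, and the 8 joints with the highest mean share. Names outside the rule are marked where they stand. The members and lists were chosen with earlier results of these data known. Alternatives covered clonotype counting, batches, parts, scaling, filters and left-out samples. The other mutant in the design text was not analysed here.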

Additional observations from a re-analysis of the deposited data

Results flagged for a closer look

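The share of J5 among Igkv19-93 counts in WT replicate 4 was 28.4%, far from the other 4 WT samples at 11.5 to 15.7%. The gap was 0.753 of the group's range, above the limit of 0.71 for 5 samples. Its 33 J5 counts fell in 9 clonotypes, and 15 of the counts were 1 clonotype. This was the only such sample in 22 groups tested, where chance alone gives about 1.1.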

How the results depend on the processing

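The share in recurrent clonotypes (5.57 points, rsCBE minus WT) and in fully templated joints (2.54 points) kept its sign under every alternative run, but passed the threshold under none of those other than leaving out replicate 2 of WT or of rsCBE. With each clonotype counted once they were 5.11 and 4.35, without clonotypes of 1 count 3.31 and 0.888, and with clonotypes 1 base apart merged 4.58 and 2.67. With the replicate block, or with labels exchanged within batches, they stayed 5.57 and 2.54. They were 1.21 and 0.989 in batch 1 alone, 8.47 and 3.57 in batch 2 alone, 7.64 and 2.77 with part a alone, and 1.74 and 0.881 with part b alone. Leaving out each sample in turn gave 4.70 to 6.59 and 2.23 to 3.0. Recurrence in at least 8 samples gave 0.823. Counting palindromic bases as templated gave 3.33, and joints with the first 12 V bases only gave 0.440. The mean length of the V match (0.313) ran from 0.248 to 0.388 when a sample was left out, passed the threshold only without rsCBE replicate 2 (exact permutation adjusted p = 0.0476), and was 1.42 with each clonotype counted once, -0.00411 without clonotypes of 1 count and -0.0608 among joints with the first 12 V bases. Against the other V segments, the difference in CDR3 length passed under every alternative except batch 1 alone (-1.46 nucleotides), where 4 samples cannot reach the threshold, and those in J1 and J5 share, which carry no test, were 19.2 and -12.2 points there. The in-frame share differed between genotypes by -4.45 points with each clonotype counted once, against 0.195 as reported and -1.66 to 1.82 when a sample was left out, and the in-frame difference from other segments was then -3.42 points (exact permutation adjusted p = 0.0273). The genotype difference in that quantity (5.65, a description added after the values were seen) was smaller with each clonotype counted once (2.95), and was also computed without clonotypes of 1 count (5.71), with the replicate block (5.65), with part a alone (5.12), and in batch 1 (6.81) or batch 2 (4.87) alone. Mean CDR3 length differed by -0.0662 nucleotides with each clonotype counted once (0.0324 as reported). The J1 difference was -4.20 with part b alone. V segments called were 1 with the replicate block and 2 with the batch term, V-J pairs 3 with DESeq2 and 7 with the batch term, and clonotypes 2 with DESeq2 and 1 with no filter. The replicate block changed no other call. Single batches hold 2 or 3 samples of a genotype, too few for a genotype comparison to pass the threshold. The cause of these changes was not tested. WT replicate 4, with 116 Igkv19-93 counts, limits the precision of the WT means.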
